A study of Mus musculus with 6 samples.

Results

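The genes described here encode receptors of myeloid cells and platelets that signal through an immunoreceptor tyrosine-based activation motif (ITAM), together with the partners that carry that signal. The set holds 10 genes: the lectin receptors Clec4d, Clec4e, Clec4n, Clec7a and Clec5a, the collagen receptors Gp6 and Oscar, the adaptor Tyrobp, the kinase Syk and the adaptor Card9. An array probe was taken as a member when its RefSeq accession mapped to one of these symbols. This gave 9 of the 10 genes, out of 19749 genes measured in all, each by 1 probe with 1 spot on an array. No probe mapped to Clec7a, which is not analysed here. Of the 9 genes, 8 were well above background on all 6 arrays, and Clec5a was so on 1 array.

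Total RNA of homogenised whole lung from C57BL/6 mice was hybridised to 6 Agilent 1-colour arrays, 1 array per group. The mice were labelled FcRg KO (FcRg-/-), FceRIa KO (FceRIa-/-) or wild type (WT), and each genotype was given mouse histamine-releasing factor (HRF) or PBS into the nose. HRF is a protein secreted in allergic reactions that can bind IgE, and the challenge asks what it does in the lung with and without these receptor chains. FcRg is the ITAM adaptor chain shared by many receptors, encoded by Fcer1g, and FceRIa is the IgE-binding chain of the high-affinity IgE receptor, encoded by Fcer1a. The labels used here give no dose, time after challenge, age or sex, and do not say whether an array holds 1 mouse or a pool of mice. All values below are log2 of the processed signal relative to the array's 75th percentile, so that 0 marks that percentile, and they can be compared between arrays for a gene but not between genes.

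Most ITAM receptors of this set have little or no signalling tail of their own and pair with an adaptor chain that carries the motif. When the receptor binds its ligand, Src-family kinases phosphorylate the motif, Syk docks on it, and in myeloid cells Syk acts through Card9, Bcl10 and Malt1 on NF-kB. Clec4d, Clec4e (Mincle) and Clec4n (Dectin-2) bind microbial glycans and glycolipids, Clec4e also senses damaged cells, and all pair with FcRg. Gp6 on platelets and Oscar on myeloid cells bind collagen and also pair with FcRg, whereas Clec5a pairs with Tyrobp. In the lung these receptors are known from macrophages, neutrophils, dendritic cells and platelets. In RNA of a whole lung, more cells of a type and more RNA per cell cannot be told apart.

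The start regions of Clec4d and Clec4e are shown because these neighbours on chromosome 6 had the highest HRF to PBS ratios of the set. That of Oscar is shown because its values hardly moved with HRF, as was also so for Card9. Sequences are from RefSeq on GRCm38.p6, which had one for 8 of the 10 members, with 250 bases before and 50 after the gene's start, 5′ to 3′ on the gene's strand. Capitals mark, on either strand, the PU.1 core GAGGAA and, in Clec4e, the C/EBP letters TTGCNNAA. The C/EBP match in Clec4e reads on the strand opposite to the printed one. PU.1 and C/EBP are transcription factors of myeloid cells. The array design itself was annotated on mm9. The 3 windows are Clec4d at chr6:123261857-123262156 on the plus strand, Clec4e at chr6:123289822-123290121 on the minus strand and Oscar at chr7:3616108-3616407 on the minus strand.
Clec4d: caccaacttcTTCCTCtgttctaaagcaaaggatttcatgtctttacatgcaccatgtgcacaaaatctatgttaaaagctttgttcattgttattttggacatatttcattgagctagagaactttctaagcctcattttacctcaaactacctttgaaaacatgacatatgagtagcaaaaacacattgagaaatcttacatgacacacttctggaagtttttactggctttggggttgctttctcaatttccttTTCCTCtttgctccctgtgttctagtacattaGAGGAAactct
Clec4e: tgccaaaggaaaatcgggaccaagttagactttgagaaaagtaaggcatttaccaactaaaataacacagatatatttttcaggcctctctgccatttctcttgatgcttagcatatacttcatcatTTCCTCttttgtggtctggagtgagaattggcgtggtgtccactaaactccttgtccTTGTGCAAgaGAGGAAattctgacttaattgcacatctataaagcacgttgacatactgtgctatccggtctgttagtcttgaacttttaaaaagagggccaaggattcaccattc
Oscar: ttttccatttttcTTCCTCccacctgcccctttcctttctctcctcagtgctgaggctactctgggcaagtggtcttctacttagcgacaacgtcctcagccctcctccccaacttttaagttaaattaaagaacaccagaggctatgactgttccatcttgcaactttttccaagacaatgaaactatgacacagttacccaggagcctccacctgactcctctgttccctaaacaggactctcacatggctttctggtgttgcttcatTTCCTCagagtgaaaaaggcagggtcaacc
The PU.1 letters stand 3 times in the Clec4d window, 2 times in that of Clec4e and 2 times in that of Oscar, where 28.3% of 32851 RefSeq mouse promoters of this length hold them at least once. The C/EBP letters, held by 10.8% of promoters, stand once in the Clec4e window and in neither of the other two. The Clec4e window has its C/EBP letters from position -66 and a PU.1 core from -56, counted from the gene's start. No window of a member held the NF-kB consensus, which 5.8% of promoters hold. A match describes letters only, and the Oscar window holds the PU.1 core as often as the Clec4e window does. Of the windows not shown, those of Card9, the steadiest member, and Gp6 hold 0 PU.1 cores, and that of Clec5a holds 2. Both Clec7a windows hold 1, and the Syk windows hold 0 and 1. A link of these letters to the values was not tested.

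Each array had 59305 spots other than controls, of which 67.5% to 79.6% were well above background, the WT PBS array having the highest share, and 0 were saturated. Fcer1g did not separate by the FcRg KO label, and Fcer1a was higher, not lower, under the FceRIa KO label. Fcer1g stood at 4.32 and 4.14 with HRF and PBS under the FcRg KO label, 4.45 and 4.07 under the FceRIa KO label, and 4.61 and 3.93 in WT. Fcer1a stood at -4.38 and -4.70 under the FcRg KO label, -1.16 and -0.90 under the FceRIa KO label, and -4.19 and -4.48 in WT, which is 8.19-fold (HRF) and 12-fold (PBS) higher under the FceRIa KO label than in WT. Whether either probe lies in the deleted part of its gene is not given in the sources used here, so the arrays are named by their labels throughout. The 6 arrays lie on 1 slide and were scanned in 1 run. Both arrays labelled FceRIa KO lie on row 2 of that slide and the other 4 on row 1, so slide row and that label cannot be told apart. Both WT arrays lie on columns 1 and 2 and the others on columns 3 and 4, and each HRF array lies 1 column right of its PBS array, so column cannot be told apart from WT or from challenge either. With 1 array per group no ratio of 2 arrays has a replicate check. The scanner software's own error estimate for a ratio was 0.20 to 0.21 on the log2 scale for each member other than Clec5a.

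The lectin receptors next to each other on chromosome 6 were higher with HRF in WT lung and under the FceRIa KO label, each by more than the error of a ratio. Under the FcRg KO label Clec4n (1.54-fold), Clec4e (1.29-fold) and Gp6 (1.42-fold) were also higher with HRF by more than that error. Clec4d was within the error there, and no member reached 2-fold. Clec4d was 1.54-fold, Clec4e 3.60-fold and Clec4n 2.08-fold higher with HRF under the FceRIa KO label. In WT Clec4d was 3.04-fold, Clec4e 2.75-fold and Clec4n 1.88-fold higher on the HRF array than on the PBS array. Gp6, Oscar and Card9 stood below 2-fold in every genotype.

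Clec4d is a lectin receptor that forms pairs with Clec4e at the cell surface. It stood at 0.71 with HRF and 0.85 with PBS under the FcRg KO label, 1.55 and 0.92 under the FceRIa KO label, and 1.90 and 0.29 in WT. The log2 HRF to PBS ratio was thus -0.14, 0.63 and 1.61. The WT HRF array was the highest of the 6 and the WT PBS array the lowest, with both arrays labelled FcRg KO and the FceRIa KO PBS array between 0.71 and 0.92, a span close to the error of a ratio. In WT, 173 of 17431 genes had a ratio at least as high as that of Clec4d, or 0.992% of them.

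Clec4e stood at -0.84 with HRF and -1.20 with PBS under the FcRg KO label, 1.11 and -0.73 under the FceRIa KO label, and 0.85 and -0.61 in WT. Its log2 ratio was 0.37 under the FcRg KO label, 1.85 under the FceRIa KO label and 1.46 in WT. The HRF arrays of the FceRIa KO label and of WT were the top pair, and both arrays labelled FcRg KO lay below the other 4, though the HRF one by only 0.11. A ratio as high was found for 79 of 16287 genes (0.485%) under the FceRIa KO label, and for 207 of 17431 genes (1.19%) in WT.

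Clec4n, the receptor for fungal mannans, was the one member whose 3 HRF arrays all lay above its 3 PBS arrays. It stood at 2.56, 3.11 and 2.97 with HRF (FcRg KO label, FceRIa KO label and WT), against 1.94, 2.05 and 2.06 with PBS. The log2 ratios were 0.62, 1.06 and 0.91. Among 15678 genes well above background on all arrays, 1027 (6.55%) had the 3 HRF arrays above all PBS arrays, against 1 of the 8 members considered. The PBS levels spread over less than the error of a ratio, so the differences between genotypes came with the HRF arrays.

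Clec5a, which pairs with Tyrobp and is known for responses to viruses, was well above background on the WT HRF array only, at -6.00. The spot read -8.68 and -8.68 with HRF and PBS under the FcRg KO label, -7.17 and -6.72 under the FceRIa KO label and -7.09 on the WT PBS array. In WT it was at least 1.48-fold higher with HRF, a bound set by the dimmest probes above background on the PBS array. Under both knockout labels it has no ratio.

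The collagen receptors did not follow the lectins. Gp6 stood at -1.76 with HRF and -2.27 with PBS under the FcRg KO label, -1.61 and -2.20 under the FceRIa KO label, and -2.81 and -2.47 in WT. Its ratio was higher with HRF under both knockout labels (log2 0.51 and 0.59) and lower in WT (-0.34, but within the error with median scaling or normexp), so the WT HRF array was the lowest of the 6. Oscar lay between -2.81 and -2.40 on all arrays, with log2 ratios of 0.05, 0.03 and -0.13, each within the error of a ratio. Both arrays labelled FceRIa KO, which are also those on row 2 of the slide, lay below the other 4. The arrays of the FcRg KO label and of WT overlapped, between -2.53 and -2.40. The share of all genes with this order was not counted.

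Tyrobp, the ITAM adaptor also known as DAP12, stood at 4.91 with HRF and 4.71 with PBS under the FcRg KO label, 4.59 and 4.52 under the FceRIa KO label, and 4.90 and 4.12 in WT. Its WT ratio was 1.71-fold, and the ratios under the FcRg KO and FceRIa KO labels were 1.15-fold and 1.05-fold, no larger than the error. The WT PBS array was the lowest of the 6, while the WT HRF array and the FcRg KO HRF array differed by 0.01. Fcer1g, the other ITAM adaptor, likewise had its largest HRF to PBS ratio in WT, with log2 0.18 and 0.39 under the FcRg KO and FceRIa KO labels and 0.69 in WT.

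Syk, the kinase that docks on the phosphorylated motif, stood at 1.69 with HRF and 1.73 with PBS under the FcRg KO label, 2.75 and 2.46 under the FceRIa KO label, and 2.90 and 2.40 in WT. Both arrays labelled FcRg KO lay at least 0.67 below each of the other 4, and differed from each other by less than the error. The log2 HRF to PBS ratio was -0.04, 0.29 and 0.50. Syk and Clec4e were the 2 of 8 members with both arrays labelled FcRg KO below the other 4, an order that 7.62% of the 15678 genes had. Card9, the adaptor downstream of Syk, was the steadiest member, with all 6 arrays between -3.05 and -2.89 and ratios of 0.08, -0.04 and -0.02.

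**Figure D1:**
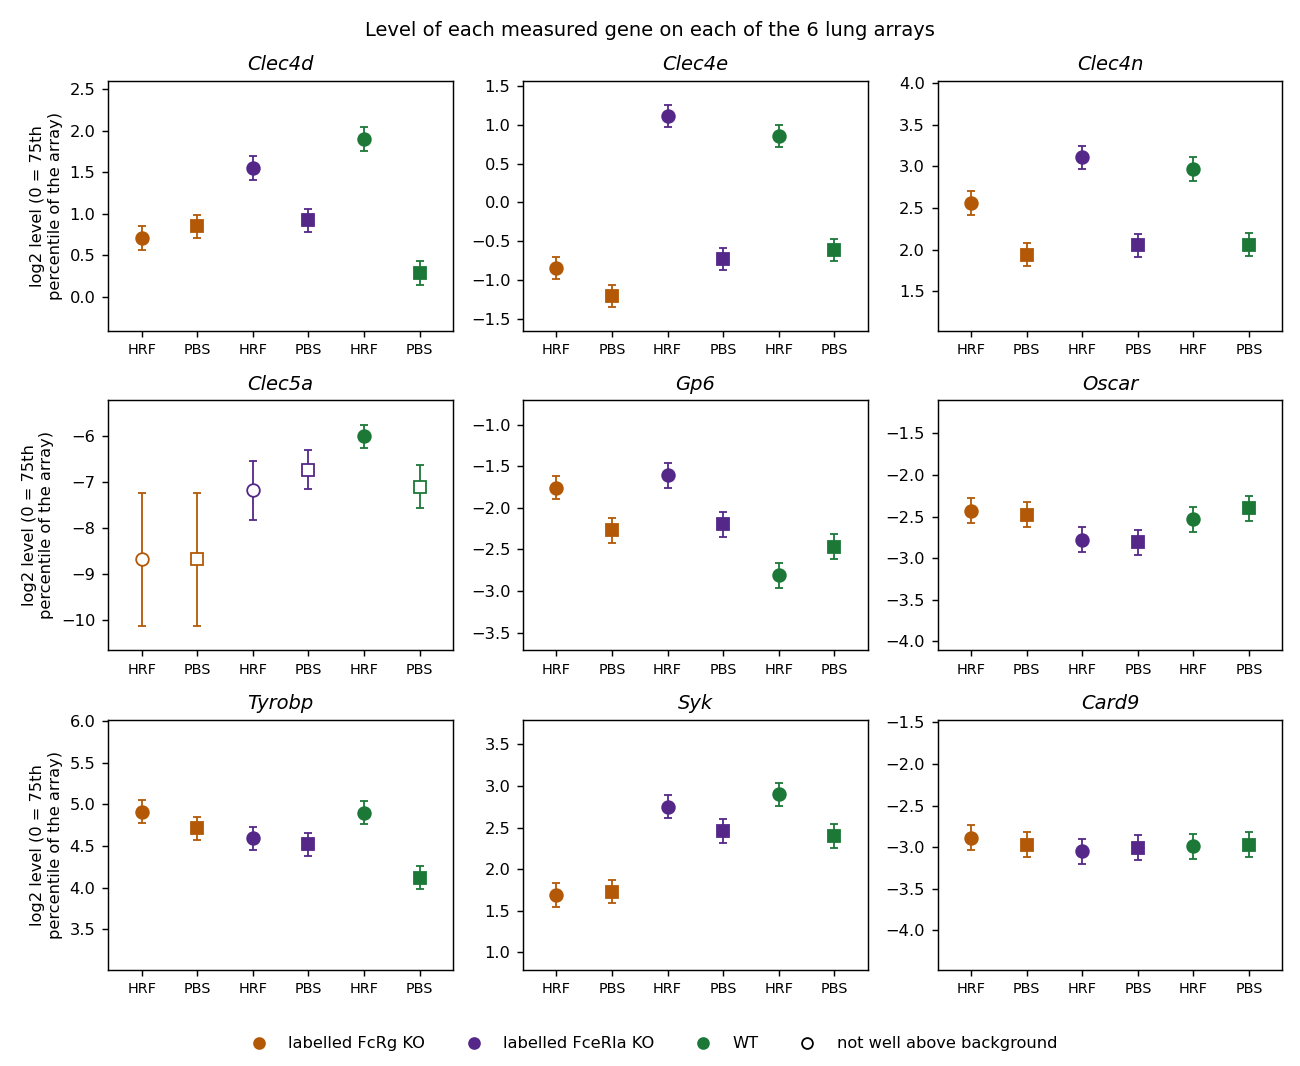
Level of each of the 9 measured genes (log2 of the processed signal, 0 = the array's 75th percentile) on the 6 arrays, with circles for HRF, squares for PBS, colours for the genotype labels and open symbols where the spot was not well above background. Bars are the scanner software's error estimate for 1 spot and not a spread between mice; axes span the same log2 width except that of Clec5a. The 3 HRF arrays of Clec4n sit above its 3 PBS arrays, both Syk arrays labelled FcRg KO sit lowest, and Card9 is flat.

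As counts, 0 of 8 members compared were at least 2-fold higher with HRF under the FcRg KO label, where 0.766% of all genes were. Under the FceRIa KO label 2 of 8 (Clec4e and Clec4n) were, against 1.49% of all genes, and in WT 2 of 9 (Clec4d and Clec4e) were, against 2.32%. No member was at least 2-fold lower in any genotype, where 1.18%, 0.448% and 1.52% of all genes were under the FcRg KO label, the FceRIa KO label and in WT. The median log2 ratio of the 8 members well above background on all arrays was 0.14, 0.44 and 0.64 in that order of genotypes, and the median of all genes was 0.00, -0.01 and -0.05. Clec4e, Clec4n and Tyrobp were higher with HRF in 3 of 3 genotypes, an order that 17.6% of the 15678 genes had, though the Tyrobp ratio of 0.07 under the FceRIa KO label is within the error and was 0.0 in the deposited table. In WT the value also moves with the scaling: on the arrays' medians the all-gene median became 0.17, and the WT log2 ratios were 1.83 for Clec4d, 1.68 for Clec4e, 1.13 for Clec4n, 1.0 for Tyrobp and -0.12 for Gp6.

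**Figure D2:**
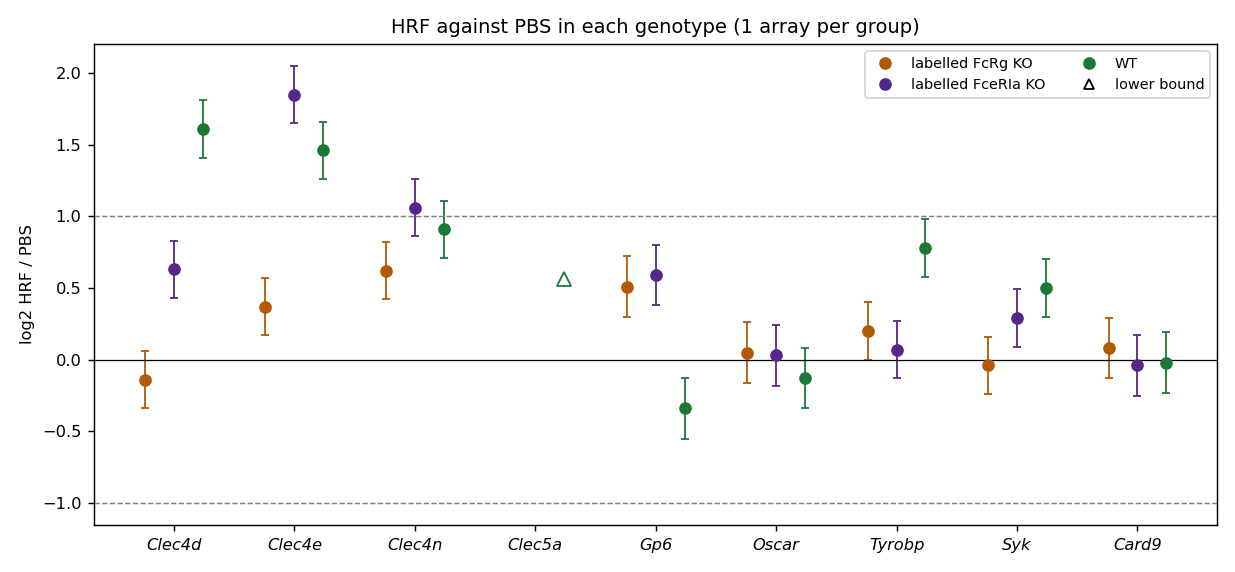
Log2 HRF to PBS ratio (y axis) for each member (x axis) in each genotype, with bars for the scanner's error estimate, dashed lines at 2-fold and a triangle for the lower bound of Clec5a in WT. Clec4d, Clec4e and Clec4n lie highest, at 1.61, 1.46 and 0.91 in WT, and Oscar and Card9 lie around 0 in every genotype.

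The average HRF effect over the 3 genotypes was tested with limma across all 17601 genes, with genotype label and challenge as additive terms. This fit treats the difference of responses between genotypes as error, and its p-values measure the spread between these arrays and not between mice. Clec4n had the smallest standard error of the lectins, with an average log2 effect of 0.86 with a standard error of 0.11 (limma adjusted p = 0.557). Clec4e had a larger effect of 1.22 with a standard error of 0.34 (limma adjusted p = 0.557), and Clec4d 0.70 with a standard error of 0.38 (limma adjusted p = 0.572). Tyrobp stood at 0.35, Syk at 0.25, Gp6 at 0.25, Clec5a at 0.21, Card9 at 0.01 and Oscar at -0.02, with limma adjusted p between 0.569 and 0.975. No member passed, and neither did any of the other genes (0 of 17601, 0%), of which 1552 had an unadjusted p under 0.05, Clec4e and Clec4n among them. The effect of Clec4d rested on WT: without the WT pair of arrays it was 0.24, and without the pair labelled FcRg KO it was 1.12.

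Differences of the HRF response between genotypes were tested with 1 further term at a time, which leaves 1 residual degree of freedom. The Clec4d response was 1.36 larger in WT than in the other genotypes, with a standard error of 0.44 (limma adjusted p = 0.574). That of Tyrobp was 0.64 larger in WT (standard error 0.15), and that of Gp6 differed by -0.89 (standard error 0.13) (limma adjusted p = 0.569 for both). The Clec4e response under the FcRg KO label differed from that of the other genotypes by -1.29 with a standard error of 0.26 (limma adjusted p = 0.765), and that of Clec4d by -1.25 with a standard error of 0.53 (limma adjusted p = 0.927). For the FceRIa KO label the Clec4e response was 0.94 larger than in the others, with a standard error of 0.59 (limma adjusted p = 1.0). None of these passed, for members or for any of the 17601 genes (0% for each of the 3 terms). Unadjusted p under 0.05 were found for 1526 genes with the WT term, 1026 with the FcRg KO term and 608 with the FceRIa KO term, including 3, 1 and 0 members. One of the 3 is Clec5a, which was well above background on the WT HRF array only.

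Set against WT on the HRF arrays, Clec4e, Clec4d and Syk were lower under the FcRg KO label and Gp6 was higher under both knockout labels. Clec4e was at -0.84 under the FcRg KO label against 0.85 in WT, or 3.22-fold lower. Syk at 1.69 against 2.90 was 2.32-fold lower, and Clec4d at 0.71 against 1.90 was 2.27-fold lower. Clec4n was lower by less, at 2.56 against 2.97, and Tyrobp was at 4.91 against 4.90. Clec5a was at least 1.43-fold lower under the FcRg KO label and at least 1.17-fold lower under the FceRIa KO label. Gp6, at -1.76 under the FcRg KO label, -1.61 under the FceRIa KO label and -2.81 in WT, was 2.07-fold and 2.30-fold higher.

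In counts, 4 of 9 members were at least 2-fold off WT under the FcRg KO label with HRF (1 higher, 3 lower), where 3.96% of all genes were. For the FceRIa KO label it was 1 of 9, Gp6, where 3.32% of all genes were. The WT HRF array is shared by both comparisons, and the Gp6 value on it enters both. On the PBS arrays 0 of 8 members were 2-fold off WT under either label, where 3.72% (FcRg KO label) and 3.41% (FceRIa KO label) of all genes were, so that count does not set the members apart. Syk differed from WT there by -0.67 and Clec4e by -0.60 under the FcRg KO label, and by -0.40 and -0.32 when arrays were scaled on their medians. Clec4d and Tyrobp were higher than the WT PBS array under both labels, by 0.56 and 0.59 under the FcRg KO label and by 0.63 and 0.40 under the FceRIa KO label, which are again set against the same WT array. With median scaling the values under the FcRg KO label were 0.83 and 0.86, and those under the FceRIa KO label 0.86 and 0.63. Oscar differed from WT on the PBS arrays by -0.41 under the FceRIa KO label. With normexp this was -0.15 and with median scaling -0.18, both within the error of a ratio.

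**Figure D3:**
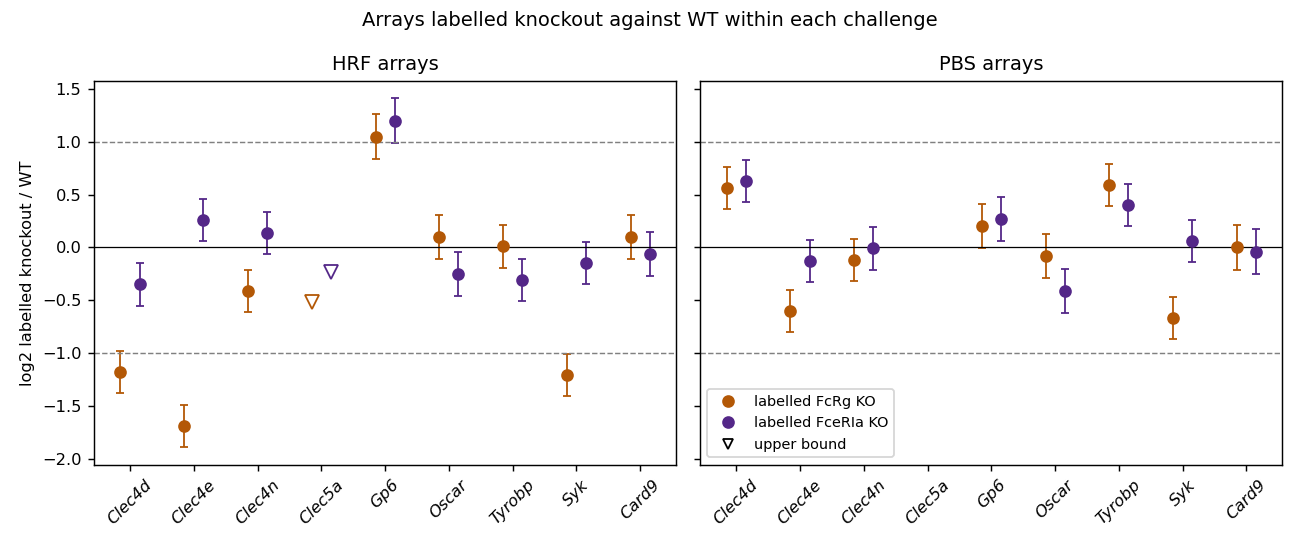
Log2 ratio of each array labelled knockout to the WT array (y axis) for each member (x axis), on the HRF arrays (left) and the PBS arrays (right), with bars for the scanner's error estimate, dashed lines at 2-fold and triangles for upper bounds. On the HRF arrays Clec4d, Clec4e and Syk labelled FcRg KO lie at -1.18, -1.69 and -1.21 and Gp6 lies above 2-fold for both labels, while on the PBS arrays no member reaches 2-fold.

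Over both challenges, the additive limma fit gave Syk a log2 difference of -0.94 with a standard error of 0.16 between the FcRg KO label and WT (adjusted p = 0.274). For Clec4e it was -1.14 with a standard error of 0.41 (limma adjusted p = 0.380), and for Gp6 0.63 with a standard error of 0.28 (limma adjusted p = 0.421). The fitted value of Clec5a rests on spots that were not well above background. No member passed, whereas 26 of 17601 genes did (0.148%). Under the FceRIa KO label Gp6 was 0.74 higher with a standard error of 0.28 (limma adjusted p = 0.414) and Oscar differed by -0.33 with a standard error of 0.09 (limma adjusted p = 0.336). No member and no other gene passed for that label (0%), with 2262 genes at an unadjusted p under 0.05. The Syk difference had an unadjusted p of 0.00601, one of 2362 genes under 0.05 for the FcRg KO label.

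The other receptors and adaptors of these ITAM families, a list of 29 genes, had their highest median HRF to PBS ratio in WT. At least 2-fold higher were 0 of 27 genes compared under the FcRg KO label, 1 of 27 under the FceRIa KO label and 5 of 28 in WT, with median log2 ratios of 0.20, 0.03 and 0.61. The shares of all genes that were so were 0.766%, 1.49% and 2.32%. The 5 in WT were the IgG Fc receptors Fcgr2b (3.88-fold) and Fcgr3 (2.26-fold), the paired immunoglobulin-like receptor Pirb (2.03-fold), Cd300lb (2.21-fold) and the lectin Clec4a1 (2.01-fold). Fcgr2b and Pirb are inhibitory receptors, whereas Fcgr3 signals through FcRg. Fcgr2b stood at 0.72 and 0.28 with HRF and PBS under the FcRg KO label, 0.34 and -0.39 under the FceRIa KO label, and 1.95 and -0.01 in WT. No gene of this list passed limma for any term. With median scaling Fcer1a, which is on this list, passed for the FceRIa KO label against WT (3.45, limma adjusted p = 0.0391).

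Of the 41 signalling partners downstream of ITAM receptors, 0 of 40 were at least 2-fold off under either knockout label and 2 of 41 were higher in WT. These were Malt1 (2.06-fold), the protease that works with Card9 and Bcl10, and the NF-kB subunit Relb (2.26-fold). Malt1 stood at 1.02 and 0.94 with HRF and PBS under the FcRg KO label, 1.61 and 1.0 under the FceRIa KO label, and 2.28 and 1.23 in WT. The median log2 ratio of the list was 0.09, 0.11 and 0.27 under the FcRg KO label, the FceRIa KO label and in WT. These counts lie near the shares of all genes that were 2-fold higher, 0.766%, 1.49% and 2.32%.

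Genes known to be induced through Card9 and Syk, mainly cytokines, had the highest WT median of the lists read. At least 2-fold higher with HRF were 0 of 14 compared under the FcRg KO label (1 lower), 8 of 16 under the FceRIa KO label and 13 of 17 in WT, with median log2 ratios of -0.09, 0.99 and 1.79. Of all genes, 0.766%, 1.49% and 2.32% were 2-fold higher in that order, and 1.18% were lower under the FcRg KO label. The cytokine Il6 stood at -3.06 and -2.78 with HRF and PBS under the FcRg KO label, -0.63 and -4.79 under the FceRIa KO label, and 2.51 and -2.29 in WT, where it was 27.8-fold higher with HRF. The neutrophil chemokine Cxcl1 was 33.5-fold higher with HRF under the FceRIa KO label and 15.9-fold in WT. Its HRF and PBS levels were -3.40 and -2.64 (FcRg KO label), 1.06 and -4.0 (FceRIa KO label), and 2.19 and -1.81 (WT). Thus its larger fold under the FceRIa KO label came with a lower HRF level than in WT. Set against WT, that label had 0 of 17 genes of the list 2-fold higher and 7 lower with HRF. With PBS 0 of 17 were higher and 5 lower. Of all genes, 3.32% (HRF) and 3.41% (PBS) were 2-fold off. Under the FcRg KO label 0 of 17 were higher and 14 lower than in WT with HRF, and 0 higher and 1 lower with PBS. There 3.96% (HRF) and 3.72% (PBS) of all genes were 2-fold off. Il1b, an inflammatory cytokine, was 2.15-fold higher under the FceRIa KO label and 6.74-fold in WT, and Ccl4, a monocyte chemokine, 1.59-fold and 4.43-fold. Many other pathways induce these genes too, and their link to the receptors was not tested. No gene of the list passed limma for any term.

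Markers of cells that carry these receptors were read beside them. Of all genes, 0.766% (FcRg KO label), 1.49% (FceRIa KO label) and 2.32% (WT) were at least 2-fold higher with HRF. Under the FcRg KO label 1.18% were at least 2-fold lower. Neutrophil markers were at least 2-fold higher with HRF for 3 of 15 genes under the FcRg KO label, 0 of 15 under the FceRIa KO label and 5 of 15 in WT, with median log2 ratios of 0.10, 0.11 and 0.80. Their levels, summed on the linear scale in units of the 75th percentile, were 244.5 and 205.5 with HRF and PBS under the FcRg KO label, 303.1 and 266.6 under the FceRIa KO label, and 222.5 and 185.9 in WT. Against the WT PBS array, which also enters the WT ratios, 3 of 15 were at least 2-fold higher and 2 lower under the FcRg KO label (median 0.43). Under the FceRIa KO label 6 of 15 were higher and 0 lower (median 0.88). Against the WT HRF array it was 0 higher and 2 lower, and 1 higher and 2 lower, in that order. Of all genes, 3.72% and 3.41% (PBS) and 3.96% and 3.32% (HRF) were 2-fold off. In WT the neutrophil receptors Il1r2 (5.33-fold) and Cxcr2 (4.89-fold) had the highest log2 ratios of that list and Csf3r the lowest, at -0.80. Under the FceRIa KO label the ratios of that list lay between -0.39 (Cxcr2) and 0.53 (Retnlg). The 3 neutrophil markers higher under the FcRg KO label were Mpo, Camp and Ngp, none of which was 2-fold off in another genotype. Monocyte and interstitial macrophage markers were higher for 0 of 14 genes (1 lower), 1 of 14 and 3 of 14 in the same order of genotypes, with medians of 0.11, 0.20 and 0.27, and their summed level ran between 153.2 and 192.2 over the 6 arrays. The 1 lower was Cd163, with log2 ratios of -3.84 under the FcRg KO label, 0.31 under the FceRIa KO label and -0.08 in WT. Cd14, a monocyte receptor for endotoxin, was 3.86-fold higher under the FceRIa KO label and 3.25-fold in WT, with a log2 ratio of -0.17 under the FcRg KO label. Dendritic cell markers were higher for 0 of 10, 2 of 10 and 4 of 10 genes (medians 0.29, 0.42 and 0.55, summed 68.53 to 99.63), and alveolar macrophage markers for 0 of 14 (1 lower), 2 of 14 and 1 of 14 (medians 0.14, 0.03 and 0.24, summed 252.5 to 406.6). All measured markers of these lists were well above background on at least 1 array. Their part in the values of the lectin receptors was not tested.

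Platelet and megakaryocyte markers were read beside Gp6, which platelets carry. Their median log2 HRF to PBS ratio was 0.19 under the FcRg KO label, 0.45 under the FceRIa KO label and -0.42 in WT, beside 0.51, 0.59 and -0.34 for Gp6. In WT the platelet median was -0.20 with normexp and with median scaling, where Gp6 stood at -0.14 and -0.12, within the error of a ratio. Their summed level was 36.33 with HRF and 33.46 with PBS under the FcRg KO label, 48.64 and 34.73 under the FceRIa KO label, and 26.67 and 31.02 in WT. Against WT on the HRF arrays 0 of 13 were at least 2-fold higher and 1 lower under the FcRg KO label (median 0.49), and 5 of 13 were higher under the FceRIa KO label (median 0.81), where 3.96% and 3.32% of all genes were 2-fold off. All 13 were well above background on at least 1 array. Their part in the Gp6 values was not tested. Lung tissue markers had medians of 0.23, 0.27 and 0.01, with 0 of 8 genes 2-fold off. Eosinophil and basophil markers were at least 2-fold higher with HRF for 3 of 7, 0 of 7 and 1 of 7 genes. The shares of all genes were 0.766%, 1.49% and 2.32%. The 3 under the FcRg KO label were Prg2, Epx and Mcpt8, and the 1 in WT was Ccr3. Against WT, the FcRg KO label had 1 of 7 higher and 3 lower on the PBS arrays (median -0.64). On the HRF arrays it had 0 of 7 higher and 1 lower. Of all genes, 3.72% (PBS) and 3.96% (HRF) were 2-fold off. Ms4a2, which encodes a further chain of the IgE receptor, was well above background on 0 of the 6 arrays.

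**Figure D4:**
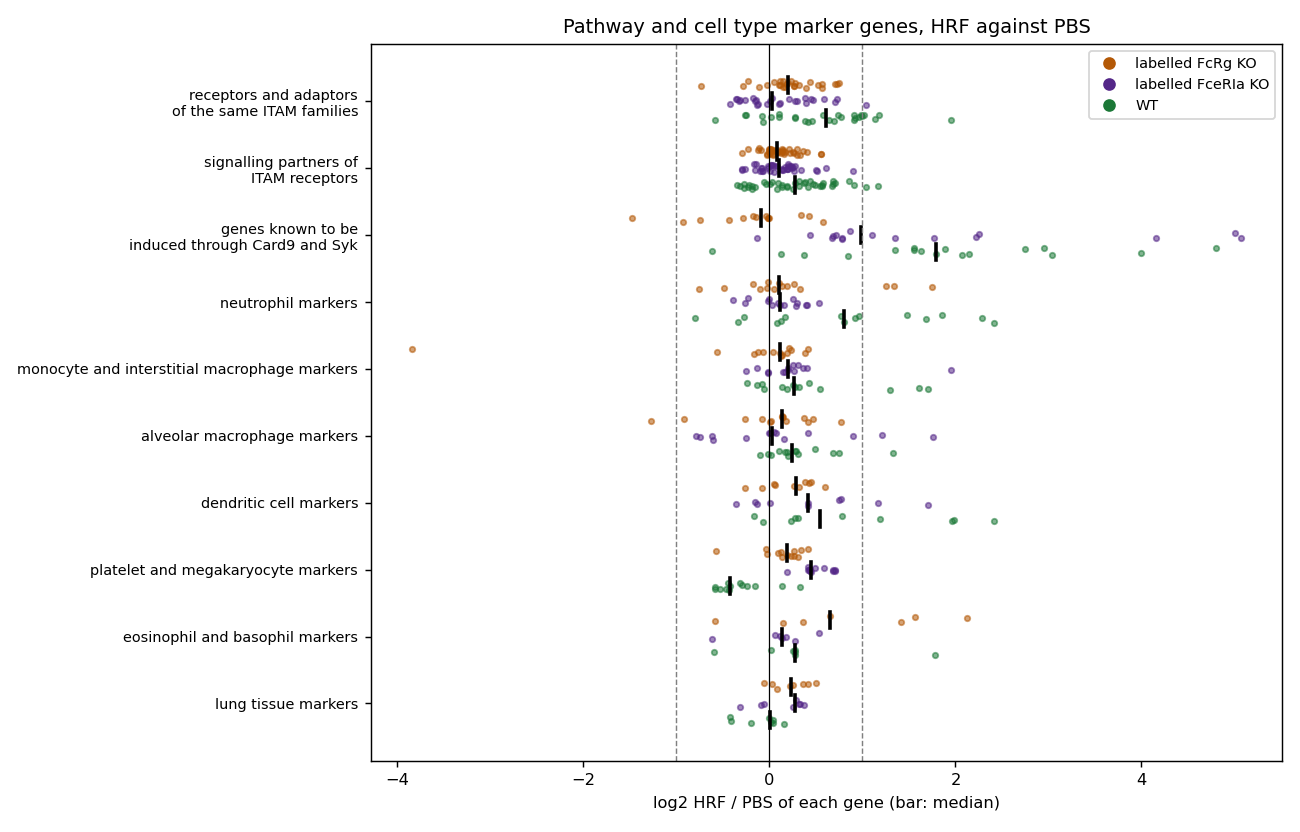
Log2 HRF to PBS ratio (x axis) of each gene compared in the pathway lists and cell marker lists (rows), with colours for the genotype labels, black bars for medians and dashed lines at 2-fold. Genes known to be induced through Card9 and Syk spread furthest to the right under the FceRIa KO label (median 0.99) and in WT (1.79), and platelet markers lie left of 0 in WT (-0.42).

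The genes whose levels ran most like each member over the 6 arrays were taken among 15677 other genes well above background on all arrays, by Pearson's r, as a description that carries no test. Clec4n ran with Cd69, a marker of activated lymphocytes (r = 0.998), with the arginine transporter Slc7a2 (r = 0.996) and with Inip (r = 0.996). Cd69 stood at -1.41, -0.80 and -0.92 on the HRF arrays and -2.01, -1.96 and -1.88 on the PBS arrays of the FcRg KO label, the FceRIa KO label and WT. Clec4d ran with Mlx (r = 0.995), Was (r = 0.991), which regulates actin in blood cells, and Zfp598 (r = 0.989). The nearest to Clec4e were Sphk1, a kinase that makes sphingosine 1-phosphate (r = 0.990), Zfp276 (r = 0.990) and Septin1 (r = 0.989). Syk ran with Acvr1b (r = 0.996), Acap1 (r = 0.995) and Mdn1 (r = 0.992). Tyrobp ran with Tmem59l (r = 0.996), with the receptor Tnfrsf12a (r = 0.993) and with Nfe2 (r = 0.989), a transcription factor of megakaryocytes. For Gp6 these were Mfsd14b (r = 0.992), Ubald1 and Zfp992 (both r = 0.983), for Oscar Lhfpl3 (r = 0.994), Ash2l (r = 0.989) and Zfyve9 (r = 0.988), and for Card9 Gp2 (r = 0.990), Ppp1ca (r = 0.987) and Ccnd3 (r = 0.985). With 6 arrays high r values are common: between 32 genes (Card9) and 78 genes (Syk) had r above 0.95 with a member. No gene was among the 3 nearest of more than 1 member.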

How the data were processed

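The authors deposited 6 scanner files, whose headers name Feature Extraction 10.7.3.1. Per these file headers their processed signal is an intensity, background-subtracted and detrended within each array and not scaled between arrays. A deposited value table holds log2 values whose centring is not stated. Its differences between HRF and PBS columns correlated with the scanner values with r of 0.997 (FcRg KO label), 0.997 (FceRIa KO label) and 0.998 (WT) and slopes of 1.00, 0.999 and 1.00, so its log2 scale and direction match. Its WT PBS column had a median of 0.10 and each other column 0, and the value each probe was centred on stays unknown.

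Each processed signal was divided by the 75th percentile of its array and put on the log2 scale. Control and outlier spots were left out and spots of a probe averaged. Of 55681 probes, 26056 were named through their accession with the RefSeq table of GRCm38.p6 (19749 genes measured), and 29625 have no name here. Where a gene had several probes (5269 genes) the brightest was used. A gene entered a comparison if 1 or more of its arrays had it well above background. A fold against an array where it was not is a bound: the denominator is the dimmest signal well above background there, or the gene's own signal if that is higher.

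Tests across all genes used limma 3.58.1 in R 4.3.3 (lmFit, eBayes, Benjamini-Hochberg threshold 0.05) on the 6 arrays. The additive fit has 2 residual degrees of freedom, which are the interaction of genotype and challenge. On simulated arrays it recovered 53 of 100 genes with a log2 HRF effect of 1 and 88 of 100 with an effect of 2. The simulated arrays had independent noise of the fitted SD and no difference of response between genotypes. The real residual is that difference, so these counts do not give the power of the fit on the real arrays. Pairs of arrays were compared by counts at 2-fold. Probes with at least 4 spots on an array had a median SD between spots of 0.061 to 0.068 (log2). The number of arrays limits the precision. Other steps used Python 3.11.15, numpy 2.4.6, pandas 2.3.3 and matplotlib 3.10.9.

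The members, the gene lists and the naming rule were chosen with earlier results of these data known. The rule named all members and the targeted genes, up to 6 genes of each list at least 2-fold off in WT, and the 3 genes most like each member. Some genes named by it, such as Tpt1, are left out of the text. A few marker genes, such as Mpo and Prg2, are named outside the rule. The settings tried besides were normexp (offset 50) with quantile normalization, the deposited table, scaling on the median, no filter, a stricter filter, the mean of a gene's probes, a fit without genotype terms and leaving out each genotype's pair.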

Additional observations from a re-analysis of the deposited data

Results flagged for a closer look

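The HRF response of Clec4d went opposite ways in a pair of genotypes. Its log2 ratio was -0.14 under the FcRg KO label, from 0.71 with HRF against 0.85 with PBS, and 1.61 in WT, from 1.90 against 0.29. The difference between these responses, the FcRg KO label minus WT, was -1.74. With 1 array per group this difference was not tested as such, and -0.14 is smaller than the scanner's error of 0.20 for a ratio. The related limma terms did not pass, with adjusted p of 0.574 for WT against the other genotypes and 0.927 for the FcRg KO label against the other genotypes. No group holds enough arrays to look for an array that stands apart from its group.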

How the results depend on the processing

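No member passed limma under any alternative. Over the settings the log2 HRF to PBS ratio of Clec4e ran from 1.78 to 1.90 under the FceRIa KO label and from 1.46 to 1.68 in WT, and that of Clec4d in WT from 1.52 to 1.83. With normexp no member was 2-fold higher than WT on the HRF arrays (0 under either knockout label), since Gp6 stood at 0.81 under the FcRg KO label and 0.99 under the FceRIa KO label. By the deposited values 4 members were 2-fold higher with HRF in WT, as were 488 genes in all, and 1 was lower than WT under the FceRIa KO label with HRF, as were 814 genes. The 1 is Clec5a, which is also among the 4 and was dim on all arrays but WT HRF. Without a filter 1 member, Clec5a, was 2-fold lower than WT under the FceRIa KO label with HRF and 1 under the FcRg KO label with PBS.

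Counts of all genes at least 2-fold off with HRF moved more. Under the FcRg KO label they were 26 higher and 80 lower with normexp, 226 and 299 in the deposited table, and 483 and 508 without a filter, against 127 and 195 in the main setting. Under the FceRIa KO label 118 were higher with normexp and 587 without a filter (main 242), and 16 lower with normexp, 155 in the deposited table, 306 without a filter and 34 with the stricter filter (main 73). In WT scaling on the median gave 614 higher and 106 lower, against 404 and 265, with 35 lower under normexp, 538 in the deposited table and 920 without a filter. Genes past limma for the FcRg KO label against WT (main 1 higher, 25 lower) were 5 and 38 with normexp, 0 and 11 in the deposited table and 0 and 16 without a filter. For the FceRIa KO label (main 0) they were 2 and 0 with normexp and 3 and 22 with median scaling, which also gave 79 and 47 for the FceRIa KO response term (main 0).

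Effects that changed sign were small and passed in no setting. With normexp the average HRF effect of Oscar was 0.05, the FceRIa KO difference from WT of Card9 0.05, the WT response term of Card9 0.14, of Clec4n -0.06 and of Oscar 0.01, the FcRg KO response term of Card9 -0.05 and the FceRIa KO one of Oscar -0.02. In the deposited table Fcer1g differed from WT by 0.05 under the FceRIa KO label. Scaling on the median gave Oscar an HRF effect of 0.06, Fcer1g differences from WT of 0.10 (FcRg KO) and 0.13 (FceRIa KO), FceRIa KO differences of 0.09 for Card9 and 0.10 for Syk, WT response terms of 0.18 for Card9 and 0.04 for Oscar, and FcRg KO response terms of -0.07 for both. The cause was not tested. Leaving out each pair of arrays in turn gave HRF effects from -0.03 to 0.03 for Card9 (lowest without the FcRg KO pair), from -0.23 to 0.54 for Clec5a (lowest without the WT pair) and, for Oscar, of 0.04 without the WT pair. Over these fits the effect of Clec4d ran from 0.24 to 1.12, with 0.24 without the WT pair.

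Pairing by genotype was already in the fit, whose genotype terms set each HRF array against the PBS array of its own genotype; without them 0 genes passed for HRF in limma, with 1006 at an unadjusted p under 0.05. With 1 array per group none was left out within a group, and the spread between mice was not measured. Dim signal limits Clec5a to a bound.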

Other observations

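The 2 protein-coding genes on each side of every member in the RefSeq order of GRCm38.p6 were read as well, and those named here were chosen after their values were seen. Clec4n, Clec4d and Clec4e follow each other on chromosome 6, beside Clec4b2 and Clec4a2 on one side and the vomeronasal receptor Vmn2r19 on the other. Clec4a2, an inhibitory lectin, did not share the WT pattern, with log2 HRF to PBS ratios of 0.75 and 1.04 under the FcRg KO and FceRIa KO labels, both lower bounds, and -0.25 in WT. Vmn2r19 was dim, not well above background, on each of the 6 arrays.

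Tarm1, a receptor of myeloid cells that lies beside Oscar on chromosome 7 and also pairs with FcRg, stood at -5.96 and -7.38 with HRF and PBS under the FcRg KO label, -5.66 and -6.86 under the FceRIa KO label, and -3.04 and -7.39 in WT. In WT it was higher with HRF by at least 3.53 on the log2 scale, a bound, while Oscar next to it had ratios within 0.13 of 0 in every genotype. Olr1, the lectin-like receptor for oxidised lipoprotein beside Clec7a, had log2 ratios of 0.54, 0.57 and 1.42 under the FcRg KO label, the FceRIa KO label and in WT. Near Syk on chromosome 13, the transcription factor gene Nfil3 had 0.18, 0.61 and 2.01 and the stress gene Gadd45g -0.04, 0.50 and 1.81 in the same order, while Diras2 and Auh, which lie nearer to Syk, stayed between -0.14 and 0.08. None of these values was tested.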
